A study of Mus musculus with 6 samples.

Results

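Glycogen is the branched glucose polymer that skeletal muscle stores as fuel for contraction. Glycogenin primes each particle, glycogen synthase lengthens its chains and the branching enzyme adds branch points, while glycogen phosphorylase takes the chains apart. Phosphorylase kinase, a complex of alpha, beta, gamma and calmodulin subunits, activates phosphorylase in response to calcium and hormonal signals. Several of these enzymes have forms named after the tissue in which each prevails, such as the muscle, brain and liver forms of phosphorylase.

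The data cover 9 genes of glycogen synthesis and breakdown, picked by symbol from the 23367 gene entries in the deposited table. They were Gyg (glycogenin), Gys1 and Gys2 (the muscle and liver forms of glycogen synthase), Gbe1 (the branching enzyme), Pygm, Pygb and Pygl (the muscle, brain and liver forms of phosphorylase), and Phka1 and Phkg1 (the alpha and gamma subunits of phosphorylase kinase that prevail in muscle). All 9 passed the filter on low counts and were among the 16882 genes tested. A further 35 genes of the pathway were followed beside them. Polyadenylated RNA was sequenced from the gastrocnemius, a calf muscle, of wild-type mice of the FVB strain at embryonic day 18.5 (E18.5), postnatal days 2, 14 and 28 (PN2, PN14 and PN28) and in the adult at 22 weeks. The E18.5 library pooled mice of both sexes, the PN2 library pooled male mice, and the PN28, adult and both PN14 libraries each came from 1 male mouse, so only PN14 had replicates (n = 2). Mice of 1 strain were used throughout and no group was treated. Because every library was run on its own lane, according to the column names, lane and stage cannot be told apart, and for the X-linked genes Phka1 and Phka2 neither can sex and stage at E18.5.

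Each library held between 125402932 and 157868359 counts on genes, which makes counting error small for every member except Gys2 before PN14. Levels are given as FPKM, fragments scaled to transcript length and library size, a scale on which different genes can be compared within a library. FPKM was scaled to library size alone, and the share of the counts held by the top 20 genes went from 16.0% at E18.5 to 36.9% in the adult. Fold changes were therefore taken from counts after TMM normalization between libraries. Over all genes tested the median log2 fold change with library size alone was -0.66 between PN2 and PN14 and -1.08 between E18.5 and adult, while with TMM it was -0.01 and -0.05. Genes were called where the adjusted p was under 0.05 (quasi-likelihood test of edgeR, Benjamini-Hochberg adjustment over all genes tested) and the log2 fold change was 1 or more in size. The spread came from the PN14 pair, the value of each gene being drawn towards that of other genes, and the other stages were taken to vary as much.

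In the annotation of the authors' genome build (mm9, GENCODE M1) the members lie on 9 different chromosomes and all are protein coding. Gyg is at chr3:20021970-20055216 and Gys2 at chr6:142371133-142421629, both on the minus strand. Gys1 (chr7:52690214-52711989, plus strand) overlaps Ruvbl2 on the other strand, and Gbe1 (chr16:70314194-70569961, plus) overlaps 4930423O20Rik likewise. Among the phosphorylases, Pygm (chr19:6384399-6398459) and Pygb (chr2:150612471-150657494) are on the plus strand and overlap no other gene, and Pygl (chr12:71291798-71332475, minus) overlaps a long noncoding RNA on the other strand. Phka1 (chrX:99709314-99839585, minus) overlaps none, whereas the annotated span of Phkg1 (chr5:130339297-130374419, minus) overlaps Sumf2, Chchd2 and 2410018M08Rik. Whether the authors counted by strand was not stated in the sources used here, so reads of the overlapping genes may not be separable from those of Gys1, Gbe1, Pygl and Phkg1.

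The promoter table from RefSeq (build GRCm38.p6) held 8 of the 9 members, and the 250 bases before each start were placed in mm9 by an exact match. They were searched on both strands for an E-box that myogenic factors bind (CAGCTG), an M-CAT element (CATTCC), a MEF2 site and a TATA box (TATAAA). The motifs did not overlap each other in these windows. Pygm, Phka1 and Gys1, which were higher in the adult than at E18.5, are shown because they held the E-box, and Pygb, which was lower, is shown beside them because it held none of the 4 motifs. Capitals mark the E-box, and each sequence runs 5′ to 3′ on the strand of its gene, at chr19:6384158-6384407 (plus) for Pygm, chrX:99839586-99839835 (minus) for Phka1, chr7:52689959-52690208 (plus) for Gys1 and chr2:150612282-150612531 (plus) for Pygb.
Pygm: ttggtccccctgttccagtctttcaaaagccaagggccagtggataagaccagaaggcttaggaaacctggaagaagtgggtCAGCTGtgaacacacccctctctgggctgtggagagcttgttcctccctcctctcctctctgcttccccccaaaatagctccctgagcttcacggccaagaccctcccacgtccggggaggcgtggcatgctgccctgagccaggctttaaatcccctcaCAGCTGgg
Phka1: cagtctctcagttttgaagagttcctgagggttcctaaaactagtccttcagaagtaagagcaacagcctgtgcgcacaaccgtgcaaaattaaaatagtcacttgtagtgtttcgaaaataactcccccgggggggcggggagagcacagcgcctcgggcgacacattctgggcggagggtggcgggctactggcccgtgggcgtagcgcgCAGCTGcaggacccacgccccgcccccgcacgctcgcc
Gys1: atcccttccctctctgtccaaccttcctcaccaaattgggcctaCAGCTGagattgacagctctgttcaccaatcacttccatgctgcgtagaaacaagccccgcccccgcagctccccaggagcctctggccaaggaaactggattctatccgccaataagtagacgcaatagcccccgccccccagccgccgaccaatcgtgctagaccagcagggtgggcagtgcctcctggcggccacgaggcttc
Pygb: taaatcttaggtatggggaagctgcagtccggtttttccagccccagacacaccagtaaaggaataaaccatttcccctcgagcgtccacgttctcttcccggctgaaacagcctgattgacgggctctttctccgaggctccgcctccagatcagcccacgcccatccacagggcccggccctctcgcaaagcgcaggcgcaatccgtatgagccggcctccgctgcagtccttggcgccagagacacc
The E-box began 168 and 8 bases before the start of Pygm, 38 bases before that of Phka1 and 206 bases before that of Gys1. None of the 4 motifs lay in the windows of Gyg, Gbe1, Pygl and Phkg1. Of these, Gyg, Gbe1 and Phkg1 were also higher in the adult than at E18.5. Windows without a motif were thus found among rising and falling members alike. Of the 32851 promoters in the table, 13.0% held the E-box, 12.6% the M-CAT element, 2.92% the MEF2 site and 12.4% the TATA box, so that an E-box in a window of this length is common and is given as a description.

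From E18.5 to adult, 7 of the 9 members rose and 2 fell. The genes of synthesis, the muscle phosphorylase Pygm and the kinase subunits Phka1 and Phkg1 were those that rose, and the brain and liver phosphorylases Pygb and Pygl were those that fell. Among all genes tested 44.9% were called in this comparison, 21.4% rising and 23.6% falling, so the share of members that fell was close to that of genes in general. The median log2 fold change of the members was 3.46, beside -0.05 over all genes tested. Most of the difference lay between PN2 and PN14, where 6 of the 9 members rose and none was called as falling, while 23.0% of all genes were called, 11.8% rising and 11.2% falling. All 9 had an unadjusted p under 0.05 there, as did 7730 of the 16882 genes tested. With library size alone 8 members were called, 6 rising and 2 falling (Pygb and Pygl), while Gys1 was not. Under that scaling 34.5% of all genes were called, 5.06% rising and 29.4% falling. With TMM the median log2 fold change of the members from PN2 to PN14 was 1.93, beside -0.01 over all genes. The share of all counts on genes that the members took together was 0.179% at E18.5, 0.195% at PN2, 0.674% and 0.507% at PN14, 0.805% at PN28 and 1.16% in adult muscle.

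**Figure D1:**
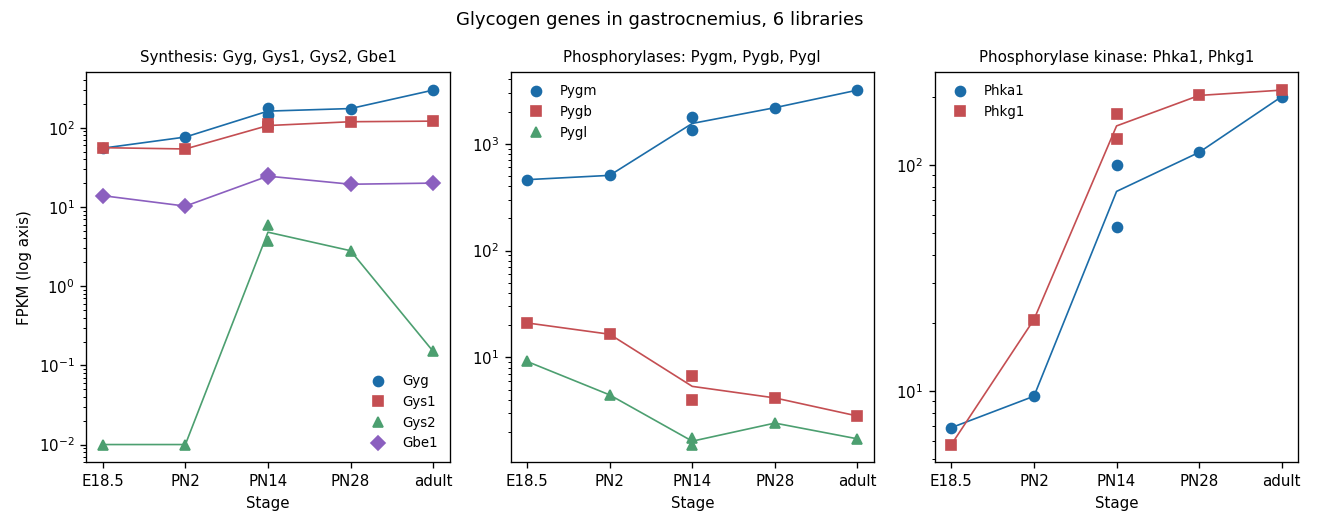
Level of each of the 9 glycogen genes in FPKM (log axis) at the 5 stages, for genes of synthesis, phosphorylases and phosphorylase kinase. Each point is 1 library and the lines join stage means. Gys2 and the kinase subunits climb most between PN2 and PN14, and Pygb and Pygl go down. Gys2 peaks at PN14 and is back to 0.15 FPKM in the adult.

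At E18.5 the order of the levels was Pygm, Gys1, Gyg, Pygb, Gbe1, Pygl, Phka1, Phkg1 and Gys2, with Gys1 at 56.0 FPKM and Gyg at 55.2 FPKM nearly level. At PN14 Pygm stood at 1550 ± 307 FPKM (SD, n = 2), about an order of magnitude above the next gene. Gyg (162 ± 23.5 FPKM) and Phkg1 (149 ± 26.1 FPKM) overlapped in the PN14 pair, as did Pygb (5.36 ± 1.97 FPKM) and Gys2 (4.80 ± 1.57 FPKM). The other PN14 levels did not overlap with their neighbours in the order. In the adult library the order had become Pygm, Gyg, Phkg1, Phka1, Gys1, Gbe1, Pygb, Pygl and Gys2, which moved both kinase subunits from below to above the synthase.

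Gyg, which encodes the self-glucosylating primer of the particle, was at 55.2 FPKM at E18.5, 76.3 at PN2, then 179 in replicate 1 and 146 in replicate 2 at PN14, 175 at PN28 and 299 in adult muscle. Both PN14 libraries were above both earlier libraries, and the adult library was the highest. Gyg rose from PN2 to PN14 by a log2 fold change of 1.77 (SE 0.362, edgeR adjusted p = 0.0187), and from E18.5 to adult by 3.46 (SE 0.422, edgeR adjusted p = 0.0021). Its ratio to Gys1 within a library, which no scaling between libraries can alter, was 0.986 at E18.5, between 1.41 and 1.61 from PN2 to PN28, and 2.46 in the adult.

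Gys1, the synthase of muscle, was at 56.0 FPKM in the E18.5 library and 54.0 in that of PN2, then at 111 and 102 in the PN14 libraries, 119 at PN28 and 121 in the adult. All 4 later libraries lay above both earlier ones. After TMM scaling the later ones were at 481 and 368 CPM (counts per library size, with no gene length) at PN14, 552 at PN28 and 618 in adult muscle, and so were less even than in FPKM. The log2 fold change from PN2 to PN14 was 1.65 (SE 0.346, edgeR adjusted p = 0.0197), and from E18.5 to adult it was 2.14 (SE 0.385, edgeR adjusted p = 0.00606). With library size alone the first of these was 0.98 and fell short of the size needed for a call.

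Gys2, the synthase known from liver, had a course of its own. Its counts were 3 at E18.5, 6 at PN2, then 1934 and 1450 in the 2 PN14 libraries, 1084 at PN28 and 56 in the adult. In FPKM this was 0.01 at E18.5 and PN2, 5.91 and 3.69 at PN14, 2.80 at PN28 and 0.15 in adult muscle, so that it was well above its other levels in only the PN14 and PN28 libraries. At PN14 it made up 5.04% and 3.50% of the summed synthase FPKM, against 0.0185% at PN2 and 0.124% in the adult, and Gys1 therefore remained the main synthase at every stage.

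The call from PN2 to PN14 for Gys2 came with a log2 fold change of 9.0 (SE 0.72, edgeR adjusted p = 0.00323). After TMM scaling the counts of PN14 replicate 1 were 695 times those of PN2 (95% exact interval 319 to 1897) and those of replicate 2 were 363 times (167 to 992). The intervals are wide because of the 6 counts at PN2, and they cover counting error only. From PN28 to adult the log2 fold change was -4.08 (SE 0.553, edgeR adjusted p = 0.0519), which missed the threshold, and the ratio of the PN28 to the adult library was 16.9 (12.9 to 22.5). The adult library was in turn 42.0 times the E18.5 library (13.7 to 210), and Gys2 was called as rising in that comparison with a log2 fold change of 5.31 (SE 0.825, edgeR adjusted p = 0.00386). Between E18.5 and PN2 the ratio of 2.02 had an interval of 0.43 to 12.5, and no difference was detectable at this depth.

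Gbe1, whose enzyme forms the branch points, was at 13.9 FPKM at E18.5, 10.2 at PN2, 25.2 and 23.8 at PN14, 19.4 at PN28 and 20 in adult muscle. In FPKM the PN14 libraries were the highest of the 6, but after TMM scaling they were at 88.3 and 69.4 CPM, with 72.5 at PN28 and 82.4 in adult muscle. Gbe1 rose from PN2 to PN14 by a log2 fold change of 1.93 (SE 0.235, edgeR adjusted p = 0.00595) and from E18.5 to adult by 1.55 (SE 0.252, edgeR adjusted p = 0.00444). The second call was lost with library size alone, where the log2 fold change was 0.53 (edgeR adjusted p = 0.222).

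Pygm, the phosphorylase of muscle and the gene mutated in McArdle disease, was the most abundant member in every library. It was at 461 FPKM at E18.5, 506 at PN2, 1767 and 1333 at PN14, 2176 at PN28 and 3178 in adult muscle. The later libraries all lay above the earlier ones. The PN14 mice differed from each other by 0.67 on the log2 scale after TMM scaling. That gap was smaller than for Gys2 (0.94) and Phka1 (1.17), which were both called from PN2 to PN14. The log2 fold change from PN2 to PN14 was 2.30 (SE 0.871, edgeR adjusted p = 0.0923) and was not called, whereas DESeq2's Wald test (adjusted p = 8.34e-11) and edgeR's exact test (adjusted p = 1.31e-05) did call it. From E18.5 to adult Pygm rose by 3.81 (SE 0.999, edgeR adjusted p = 0.0214). Its ratio to Gys1, the breakdown against the synthesis enzyme of muscle, was 8.24 at E18.5, 9.38 at PN2, 15.9 and 13.1 at PN14, 18.3 at PN28 and 26.2 in adult muscle.

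Pygb, the phosphorylase known from brain and fetal tissues, was at 21.0 FPKM at E18.5, 16.5 at PN2, 3.97 and 6.75 at PN14, 4.18 at PN28 and 2.83 in adult muscle. Both libraries before PN14 were above all later ones. The log2 fold change from PN2 to PN14 was -0.99 (SE 0.237, edgeR adjusted p = 0.0280), just short of the size needed for a call, and it lay between -1.0 and -1.62 in the 5 alternatives that called it. From E18.5 to adult Pygb fell by 1.87 on the log2 scale (SE 0.292, edgeR adjusted p = 0.00392).

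Pygl, the liver form, was at 9.17 FPKM at E18.5, 4.46 at PN2, 1.53 and 1.76 at PN14, 2.43 at PN28 and 1.73 in adult muscle. It fell from E18.5 to adult by 1.38 on the log2 scale (SE 0.247, edgeR adjusted p = 0.00592), while from PN2 to PN14 the log2 fold change was -0.79 (SE 0.205, edgeR adjusted p = 0.0350), too small in size for a call. After TMM scaling the PN28 library, at 8.57 CPM, was level with PN2 at 8.53 CPM. Taken within each library, Pygm made up 93.9% of the summed phosphorylase FPKM at E18.5, 96.0% at PN2, 99.7% and 99.4% at PN14, 99.7% at PN28 and 99.9% in adult muscle. Pygb went from 4.28% to 0.0889% over the same span and Pygl from 1.87% to 0.0544%.

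Phka1 encodes the alpha subunit of phosphorylase kinase in muscle, a regulatory subunit. Its level was 6.89 FPKM at E18.5, 9.49 at PN2, 99.8 and 53.2 at PN14, 114 at PN28 and 201 in adult muscle. The PN14 mice differed by 1.17 on the log2 scale after TMM scaling, the widest gap of the 9 members, yet both were well above PN2. Phka1 rose from PN2 to PN14 by a log2 fold change of 3.73 (SE 0.654, edgeR adjusted p = 0.0126), which was 3.03 without replicate 1. From E18.5 to adult it rose by 5.91 (SE 0.761, edgeR adjusted p = 0.00235).

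Phkg1 encodes the catalytic gamma subunit of muscle, and it was at 5.80 FPKM at E18.5, 20.7 at PN2, 168 and 131 at PN14, 203 at PN28 and 215 in adult muscle. Each stage was above the one before it, with little left to gain after PN28. It rose from PN2 to PN14 by a log2 fold change of 3.53 (SE 0.431, edgeR adjusted p = 0.00595). The change from E18.5 to adult, 6.24 (SE 0.516, edgeR adjusted p = 0.00124), was the largest of the 9 members.

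Set against their paralogs, both kinase subunits changed places with the form known from liver. Phka1 made up 36.4% of the summed alpha subunit FPKM at E18.5 and 42.6% at PN2, but 97.5% and 94.6% at PN14, 98.3% at PN28 and 99.1% in adult muscle. Phkg1 made up 37.6% of the gamma subunit FPKM at E18.5, already 68.6% at PN2, and between 95.3% and 97.9% from PN14 on. In both families the form known from liver was thus the more abundant at E18.5. Phka2, the other alpha subunit, was at 12.1 FPKM at E18.5, 12.8 at PN2, 2.54 and 3.04 at PN14, 1.94 at PN28 and 1.90 in adult muscle, and it fell from PN2 to PN14 by 1.55 on the log2 scale (SE 0.16, edgeR adjusted p = 0.00474). Phkg2, the other gamma subunit, was not called in any comparison, with log2 fold changes of -0.06 from PN2 to PN14 and -0.03 from E18.5 to adult.

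**Figure D2:**
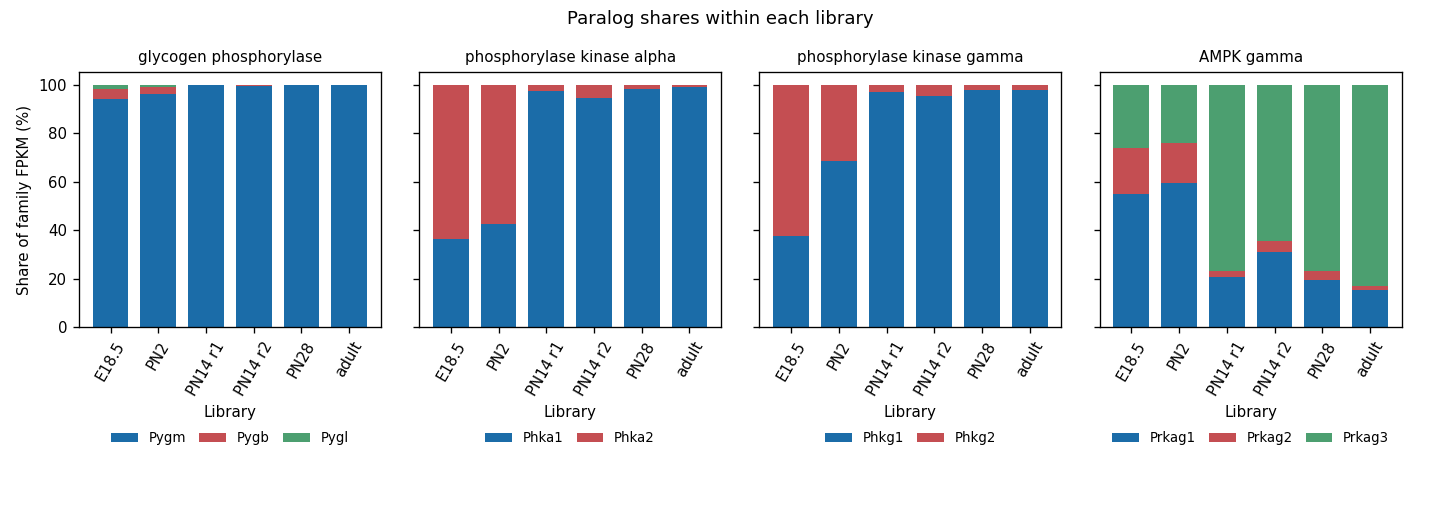
Share of each paralog in the summed FPKM of its family (percent), in each of the 6 libraries, for phosphorylase, the alpha and gamma subunits of phosphorylase kinase and the gamma subunit of AMP-activated protein kinase (AMPK). Phka1 goes from 42.6% at PN2 to at least 94.6% at PN14 and Prkag3 from 24.1% to at least 64.3%, while Pygm is at 93.9% or more in every library.

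Phkb, the beta subunit that has no second gene in this family, rose beside them. It was at 16.3 FPKM at E18.5, 17.5 at PN2, 58.6 and 43.3 at PN14, 79.4 at PN28 and 143 in adult muscle, a log2 fold change from PN2 to PN14 of 2.22 (SE 0.415, edgeR adjusted p = 0.0147). The summed alpha subunits stayed at between 1.16 and 1.75 times Phkb in the 6 libraries. The summed gamma subunits were at 0.948 times Phkb at E18.5, 1.73 at PN2, 2.95 and 3.17 at PN14, 2.62 at PN28 and 1.53 in adult muscle. Of the genes for calmodulin, the fourth subunit, Calm3 was called only from E18.5 to adult (1.70, SE 0.365, edgeR adjusted p = 0.0110), where library size alone gave 0.68 (edgeR adjusted p = 0.103), and Calm2 was called in no comparison.

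**Figure D3:**
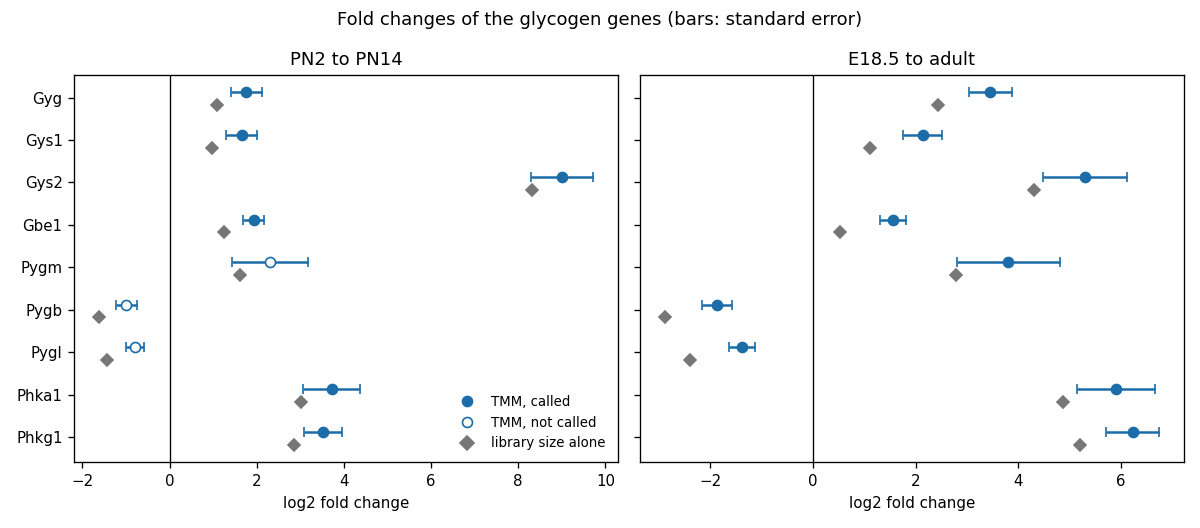
Log2 fold change of the 9 glycogen genes from PN2 to PN14 and from E18.5 to adult, with TMM normalization (circles, filled where called, bars showing the standard error) and with library size alone (diamonds). All 9 are called from E18.5 to adult with TMM, and library size alone moves every value down without turning any direction.

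In the other 3 intervals between successive stages no member was called by edgeR's quasi-likelihood test. From E18.5 to PN2, 0.0296% of all genes were called, and 1121 of 16882 had an unadjusted p under 0.05. Of the members, 2 had such a p. These were Phkg1 with a log2 fold change of 1.84 (SE 0.425, edgeR adjusted p = 0.343) and Pygl with -1.04 (SE 0.243, edgeR adjusted p = 0.351), and 1 member, Phkg1, was called by the Wald test of DESeq2 and by edgeR's exact test. From PN14 to PN28, 0.0178% of all genes were called, and 1420 of 16882 had an unadjusted p under 0.05. The 1 member with such a p was Pygl, with a log2 fold change of 0.79 (SE 0.206, edgeR adjusted p = 0.486), and neither of the other tools called any member. From PN28 to adult, 0.521% of all genes were called, and 3091 of 16882 had an unadjusted p under 0.05. Gys2 was the 1 member with such a p, and both other tools called it as lower in the adult. The number of calls over all genes was small in these intervals, in which no stage but PN14 had a replicate.

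Among the 35 other genes of the pathway, all of them tested, 15 were called from PN2 to PN14, 10 rising and 5 falling. From E18.5 to adult 27 were called, 19 rising and 8 falling. Over all genes tested TMM called 23.0% in the first comparison, 11.8% rising and 11.2% falling. In the second it called 44.9%, 21.4% rising and 23.6% falling. The part of the list that fell was thus close to that of genes in general. With library size alone the split was 6 rising and 8 falling in the first comparison and 10 rising and 13 falling in the second. Of all genes, that scaling called 5.06% as rising and 29.4% as falling in the first comparison, and in the second it called 53.6%, with 7.98% rising and 45.6% falling. The medians over the list were 0.39 and 1.14 on the log2 scale with TMM, values that any fold below 0 for the nearly absent Ppp1r3g would leave as they are. The 8 genes not called in any of the 5 comparisons were Phkg2, Calm2, Ppp1r3e, Ppp1ca, Ppp1cc, Prkaa1, Prkab1 and Prkag1.

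Phosphoglucomutase interconverts the glucose phosphates on the way into and out of glycogen, and UDP-glucose pyrophosphorylase serves synthesis. The table's Pgm2, the gene on chromosome 4 that is now called Pgm1, was at 157 FPKM at E18.5, 150 at PN2, 438 and 377 at PN14, 498 at PN28 and 634 in adult muscle. It rose from PN2 to PN14 by a log2 fold change of 2.12 (SE 0.482, edgeR adjusted p = 0.0246). The table's Pgm1, now called Pgm2, was far lower at 8.71 FPKM at E18.5 and 0.88 in the adult, and fell from E18.5 to adult by 2.29 on the log2 scale (SE 0.301, edgeR adjusted p = 0.00246). Ugp2, which makes the UDP-glucose that the synthase uses, was called only from E18.5 to adult, at 1.81 (SE 0.374, edgeR adjusted p = 0.00964), a call that was lost with library size alone (0.78, edgeR adjusted p = 0.058).

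Protein phosphatase 1, which activates the synthase and inactivates phosphorylase, is brought to glycogen by targeting subunits, and these moved in opposite directions. Ppp1r3a, the subunit best known from muscle, rose from PN2 to PN14 by a log2 fold change of 1.22 (SE 0.292, edgeR adjusted p = 0.0280) and Ppp1r3c by 2.04 (SE 0.27, edgeR adjusted p = 0.00687). The call of Ppp1r3a was lost with library size alone (0.55, edgeR adjusted p = 0.155). From E18.5 to adult Ppp1r3a rose by 3.33 (SE 0.349, edgeR adjusted p = 0.00158), a call kept with library size alone (2.31, edgeR adjusted p = 1.19e-08). Ppp1r3b, the subunit best known from liver, was at 9.68 FPKM at E18.5, 2.40 at PN2, 0.50 and 0.60 at PN14, 0.88 at PN28 and 0.75 in adult muscle. It fell from PN2 to PN14 by 1.47 on the log2 scale (SE 0.206, edgeR adjusted p = 0.00776), and Ppp1r3d fell by 1.15 (SE 0.183, edgeR adjusted p = 0.0102). Ppp1r3g was also called as falling in both comparisons, and since it had 97 counts at E18.5, 26 at PN2, 0 and 1 at PN14, 3 at PN28 and 2 in adult muscle, no fold is given. Ppp1r3f (1.14, SE 0.319, edgeR adjusted p = 0.0264) and the catalytic Ppp1cb (1.52, SE 0.338, edgeR adjusted p = 0.0121) were called only from E18.5 to adult, where library size alone gave 0.12 and 0.50.

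Of the kinases that phosphorylate glycogen synthase, AMPK changed in the make-up of all 3 of its subunits. Prkag3, the gamma subunit typical of fast glycolytic muscle, was at 14.1 FPKM at E18.5, 11.9 at PN2, 117 and 72.3 at PN14, 122 at PN28 and 152 in adult muscle. It rose from PN2 to PN14 by a log2 fold change of 3.68 (SE 0.52, edgeR adjusted p = 0.00781), and its share of the gamma subunit FPKM went from 24.1% at PN2 to 76.8% and 64.3% at PN14 and 83.0% in the adult. Prkaa2, a catalytic alpha subunit, rose by 1.74 (SE 0.36, edgeR adjusted p = 0.0191) and went from 63.8% of its family at PN2 to 84.8% and 80.0% at PN14. Prkab2, a beta subunit, rose by 2.01 (SE 0.436, edgeR adjusted p = 0.0217) and went from 53.2% to 87.0% and 79.2%. Prkag2 fell from E18.5 to adult by 1.05 on the log2 scale (SE 0.214, edgeR adjusted p = 0.00915). The glycogen synthase kinases Gsk3a and Gsk3b were called only in that comparison, at 1.26 (SE 0.24, edgeR adjusted p = 0.00729) and 1.11 (SE 0.229, edgeR adjusted p = 0.00939), and library size alone left 0.24 and 0.09.

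Prkaca, a catalytic subunit of protein kinase A, which activates phosphorylase kinase, was at 474 FPKM at E18.5, 463 at PN2, 100 and 151 at PN14, 82.9 at PN28 and 65.0 in adult muscle. It fell from PN2 to PN14 by 1.24 on the log2 scale (SE 0.308, edgeR adjusted p = 0.0307). All 4 later libraries were thus below both earlier ones.

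Of the proteins that bind or survey the particle, Epm2a (laforin, a glycogen phosphatase) rose from PN2 to PN14 by a log2 fold change of 1.42 (SE 0.279, edgeR adjusted p = 0.0165). Nhlrc1 (malin, the ubiquitin ligase that acts with laforin) was called only from E18.5 to adult, at 2.06 (SE 0.238, edgeR adjusted p = 0.0019). Both calls were lost with library size alone, which gave 0.75 for Epm2a (edgeR adjusted p = 0.126) and 1.03 for Nhlrc1 (edgeR adjusted p = 0.0725). From E18.5 to adult Epm2a rose by 4.04 (SE 0.34, edgeR adjusted p = 0.00124). That call was kept with library size alone (3.02, edgeR adjusted p = 7.33e-09). Stbd1, which tethers glycogen to membranes, was at 251 FPKM at E18.5, 236 at PN2, 69.2 and 109 at PN14, 59.8 at PN28 and 20.1 in adult muscle. It fell from E18.5 to adult by 2.62 on the log2 scale (SE 0.337, edgeR adjusted p = 0.00235), so that it went the other way from both laforin and malin. Gaa, the lysosomal glucosidase, was called only in the same comparison, at 2.10 (SE 0.399, edgeR adjusted p = 0.00717).

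**Figure D4:**
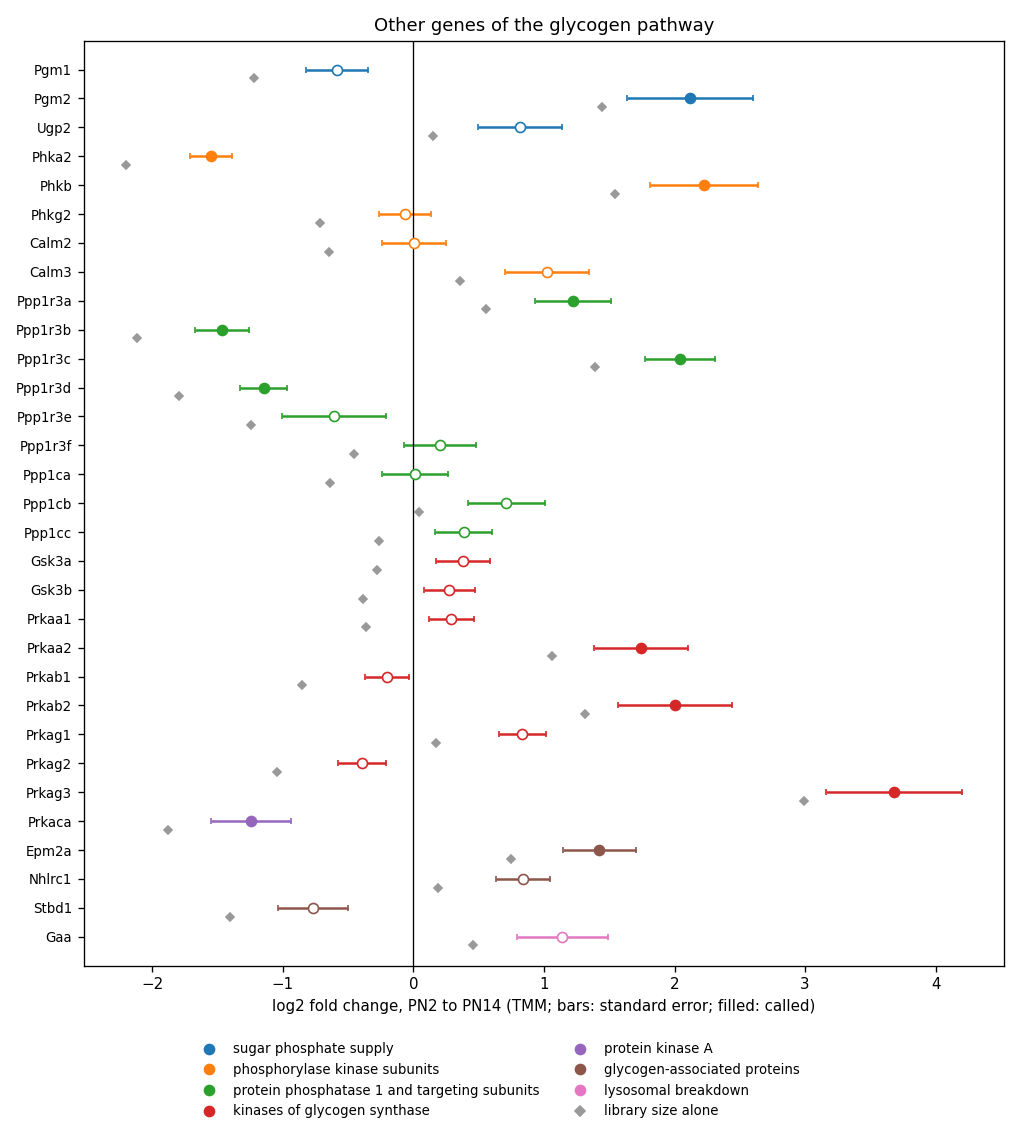
Log2 fold change from PN2 to PN14 of the other glycogen pathway genes, coloured by role, with TMM (circles, filled where called, bars showing the standard error) and with library size alone (grey diamonds). Ppp1r3g, at 0 and 1 counts at PN14, is not drawn, nor are the list genes that are not reported here, and library size alone turns 7 genes that were not called, such as Gsk3a and Gsk3b, from above 0 to below it.

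The genes whose profile over the 6 libraries was most like that of Pygm, by Euclidean distance between centred log2(FPKM + 0.1) values among 6917 genes, were Acad11 (distance 0.32, Pearson r = 0.995), Aldoa (0.322, r = 0.992) and Tnnt3 (0.338, r = 0.992). Aldoa encodes the glycolytic aldolase of muscle and Tnnt3 the fast form of troponin T. Those nearest to Pygb were Ppia (0.0697), which has many near-identical copies in the genome, Kdelc2 (0.162) and the replication helicase gene Mcm7 (0.163). For Gys2, which did not itself reach the minimum of 10 FPKM, they were Aqp4 (2.00, r = 0.957), a water channel of fast fibres, Tmem52 (2.49, r = 0.936) and the fast myosin gene Myh1 (2.86, r = 0.888). This choice hung on the settings, since a minimum of 1 FPKM put 9030619P08Rik first (0.94, r = 0.988) and a pseudocount of 1 FPKM put Ip6k3 (0.967) and the myosin gene Myh2 (0.984) first. These values describe 6 points that share the libraries and their depth.

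In bulk tissue, fewer cells of a type and less RNA per cell cannot be told apart, so markers were read in the same libraries. The 10 skeletal muscle fibre markers summed to 24758 FPKM at E18.5, 28272 at PN2, 84442 and 68260 at PN14, 92564 at PN28 and 88176 in adult muscle, and all were at 1 FPKM or more in every library except the adult, where 8 were and the developmental myosins Myh3 and Myh8 were at 0.35 and 0.25 FPKM. For Gys2 and Pygl, which are known from liver, the liver markers are of interest. Of the 8, 7 were at no more than 0.1 FPKM in any library, Fgb being at 0 in all. The remaining one, Cyp2e1, reached 8.25 FPKM at PN28 and 6.15 in the adult. Any part of liver RNA in the Gys2 and Pygl levels was not tested.

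Pygb and Pygl were lower in the adult than at E18.5, and so were the sums of 5 nonmuscle lists, whose part in the result was not tested. These sums are in FPKM, which was scaled to library size alone. After TMM scaling all markers of these lists were still lower in the adult than at E18.5, except Dcn and Myh11. The fibroblast marker Dcn was at 497 CPM at E18.5 and 832 in the adult, and the smooth muscle marker Myh11 at 56.5 and 58.4. The 5 fibroblast markers summed to 5977 FPKM at E18.5, 4897 at PN2, 1693 and 1998 at PN14, 1821 at PN28 and 499 in adult muscle. The 4 smooth muscle markers summed to 318 FPKM at E18.5, 291 at PN2, 154 and 269 at PN14, 97.2 at PN28 and 54.2 in adult muscle. The 4 endothelial markers summed to 150, 153, 135 and 207, 98.7 and 53.3 FPKM in the same order. The 5 erythroid markers went from 8424 FPKM at E18.5 to 1476 at PN2, and lay between 1153 and 2092 from PN14 to PN28 and at 370 in the adult.

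The 8 neutrophil markers, of a cell type that also uses Pygl, summed to 18.9 FPKM at E18.5 and 35.5 at PN2, then to 0.73 and 1.54 at PN14, 0.22 at PN28 and 0.30 in adult muscle, with Elane at no more than 0.06 FPKM throughout. The part of these cells in the Pygl levels was not tested. The 7 adipocyte markers summed to between 374 and 642 FPKM, most of it from Fabp4, which was at 372 FPKM at E18.5 and 303 in the adult. The other 6 were all higher in the adult than at E18.5, an example being Adipoq at 1.06 FPKM at E18.5, 22.0 at PN2, 4.03 and 2.82 at PN14, 17.5 at PN28 and 12.8 in adult muscle.

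The PN14 mice also differed in these markers. Replicate 2 had the higher sum of the 4 Schwann cell markers (1170 FPKM against 318 in replicate 1, with 222 to 574 in the E18.5, PN2 and PN28 libraries and 221 in the adult) and the lower sum of fibre markers. It was lower than replicate 1 in 8 of the 9 members after TMM scaling, by 0.06 for Pygl up to 1.17 for Phka1 on the log2 scale, and higher only in Pygb, by 0.51. Within the fibre list, replicate 2 was higher in Myh1 (1377 against 1238 FPKM). It was also higher in the developmental myosins Myh3 (26.2 against 10.9 FPKM) and Myh8 (31.05 against 8.25 FPKM). The part of nerve tissue, or of any other marker difference, in the gap between the PN14 mice was not tested. That gap enters the standard error of every test above.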

How the data were processed

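Polyadenylated RNA from 6 gastrocnemius libraries was analysed from 1 deposited table. The authors aligned reads to mm9 with TopHat2 2.0.5 and used RSEM (version not given in the sources used here) on RefSeq genes. The deposited expected counts are not normalized, and the deposited FPKM values are scaled to gene length and library size. Expected counts were rounded and fitted in R 4.3.3 with edgeR 4.0.16 (TMM, filterByExpr by stage, quasi-likelihood test, 5 stages, 16882 genes, Benjamini-Hochberg adjustment per comparison), with 1 residual degree of freedom and a common biological coefficient of variation of 0.188. Each standard error is the size of the log2 fold change divided by the square root of the F statistic of the quasi-likelihood test. The fit was tested on simulated data. Alternatives were library size alone, DESeq2 1.42.0 size factors or Wald test, edgeR's exact test, other filters, and leaving out either PN14 replicate. Intervals for Gys2 are exact conditional 95% intervals. Genes named were the members, list genes called in any of the 5 comparisons, and the 3 genes nearest in pattern to Pygm, Pygb and Gys2 with at least 10 FPKM in a library. Some of the list genes are counted but not reported here by name. The members and lists were chosen with earlier results of these data known. No protein sequences were used. Replicates are separate mice. Tables and figures used Python 3.11.15, pandas 2.3.3 and scipy 1.17.1.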

Additional observations from a re-analysis of the deposited data

How the results depend on the processing

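Of 306 recomputed fold changes of the 9 genes, 281 kept direction and, where there was a test, side of the threshold. The fits without 1 PN14 replicate had no test, and there a value was kept if it lay within the standard error of the main value. The count of calls among the members stayed between 6 and 8 from PN2 to PN14 and at 8 or 9 from E18.5 to adult. From E18.5 to PN2 the count went from 0 to 1 (Phkg1) with library size alone, DESeq2's Wald test or edgeR's exact test. From PN28 to adult it went from 0 to 1 (Gys2) with those 3, DESeq2's size factors or no filter. The log2 fold change of Gbe1 from PN14 to PN28 was -0.12, with 0.063 without PN14 replicate 1 and -0.30 without replicate 2, and that of Pygb was -0.10, with -0.33 without replicate 1 and 0.16 without replicate 2, so both turned direction, neither having been called. Without replicate 1 the change of Phka1 from PN14 to PN28 was 1.46 in place of 0.76, and that of Gys2 was -0.04 in place of -0.58. Members at least 2-fold different from PN2 to PN14, with no test, numbered 7, and 7 to 8 without 1 replicate. This count was added after seeing the data, and the share of all genes that differed as much was not counted. Over all genes, calls from E18.5 to PN2 ranged from 4 to 346 (5 as reported), from PN14 to PN28 from 3 to 262 (3), from PN28 to adult from 13 to 1146 (88), and from PN2 to PN14 library size alone gave 5825 (3884). Of the 3 genes nearest in pattern, a pseudocount of 1 or a minimum of 1 FPKM left 2 for Pygm, 1 for Pygb, and 0 and 1 for Gys2. The cause of these differences was not tested. Depth limits Gys2 before PN14 and Ppp1r3g from PN14 on, and 4 of the 5 stages had 1 library. No paired analysis was possible because the stages were sampled from different mice.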
